A study of Sus scrofa with 54 samples.

Results

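The samples described here were the myocardial micro-biopsies (micro-EMB) of the 4 pigs from which micro-EMB were sequenced at both timepoints, pigs 4491, 4494, 4664 and 4665. They numbered 28 of the 54 sequenced samples, 16 from baseline (day 0) and 12 from follow-up (day 7), and were chosen by the labels for sample type, pig and timepoint. Pig 4493, which had baseline micro-EMB only, was left out.

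The study tested a miniaturized biopsy device, advanced through a micro-catheter into the left ventricle, in female farm pigs (Yorkshire-Swedish breed), and measured gene expression by RNA-seq as read counts per gene. All pigs were biopsied on day 0, under isoflurane anaesthesia, and those followed up were biopsied again 7 days later, so every day 7 sample came from a heart that had been biopsied before, and the day cannot be told apart from that procedure. The 4 pigs gave 4, 4, 3 and 5 baseline samples, in the order above, and 3 day 7 samples each. Biopsies of 1 pig and day are not separate animals, and the sequenced biopsies had been chosen to give a mixture of sample scores. Pigs 4491 and 4494 also gave biopsies taken with a conventional forceps (conventional EMB), 6 at baseline and 4 at day 7, taken as a further intervention in those hearts on the same days, which serve below as a set from the same animals.

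After an injury, the heart fills the damaged site with extracellular matrix. Activated fibroblasts, called myofibroblasts, secrete collagens together with matricellular proteins such as periostin and fibronectin, while enzymes cross-link the collagen and proteases remodel it. Cardiomyocytes, which hardly divide in the adult heart, carry the contractile and conduction genes by which heart tissue is recognized.

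Total counts ran from 73988 to 4649613 at baseline (median 1368296) and from 801208 to 2940747 at day 7 (median 1992503). The number of genes at 1 CPM (counts per 1000000 counted reads) or more ran from 1386 to 17076 at baseline and from 9168 to 15645 at day 7. Sample 10 (73988 counts, 1386 genes) and sample 21 (1689 genes), both baseline samples of pig 4491, had far fewer detected genes than the other samples, and every comparison was also made with 26 samples, without them. All 28 samples held counts for at least some cardiomyocyte genes, though their level varied. The mean log2 CPM of 15 contractile and conduction genes ran from 2.95 to 11.52 at baseline (median 10.82) and from 4.56 to 11.35 at day 7 (median 10.00). It was lowest in baseline samples 4 and 21 (2.95 and 3.69) and, at day 7, in sample 36 (4.56). A set of 75 genes that were higher in conventional EMB than in blood and skeletal muscle took up a median of 10.5% of counts at baseline and 6.50% at day 7. Sample 36 had 1.33% (95% Wilson interval 1.31 to 1.34%) and sample 21 had 0.273% (0.261 to 0.285%). Blood-only genes took up at most 0.0172% in any of these samples (sample 4), followed by 0.0152% in sample 19. Whole blood samples themselves held only 0.0597 to 0.0698%, so these shares are not negligible. Samples 4, 19 and 44 were treated as contaminated with blood and left out in some alternatives below, although sample 44 had 0.00182%. Differences between timepoints in total counts, detected genes, blood-only genes and heart genes did not pass (exact permutation tests within pigs, two-sided, p from 0.133 to 0.594 with 28 samples and from 0.169 to 0.719 with 26).

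SFRP2 and POSTN led the ranking by the paired test of day 7 against baseline. With 28 samples, 2 of 12164 genes passed the test (0.0164%; adjusted p under 0.05 and a log2 fold change past 1, edgeR quasi-likelihood test with pig as covariate), and both rose. They were POSTN, which encodes periostin, a matricellular protein of wound healing made by activated fibroblasts, and SFRP2, which encodes a secreted modulator of Wnt signalling. Without samples 10 and 21, none of 12752 genes passed (0%), although 544 had an unadjusted p under 0.05. In those 26 samples DESeq2 called 22 genes, limma voom 0 and edgeR on counts summed per pig and timepoint 1, which was POSTN.

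POSTN was measured in every day 7 sample. In pig 4491 the day 7 samples held 1998, 489 and 7551 CPM, against 262, 0, 674 and 124 CPM at baseline. In pig 4494 they held 6992, 581 and 856 CPM against 76.3, 424, 115 and 165 CPM. All day 7 values of pig 4494 lay above its baseline values, whereas in pig 4491 1 day 7 sample (489 CPM) lay below the highest baseline sample. In pig 4664 the values were 5529, 13231 and 1174 CPM at day 7 and 468, 326 and 504 CPM at baseline, again without overlap. In pig 4665 they were 229, 9185 and 278 CPM at day 7 and 258, 233, 59.8, 473 and 1675 CPM at baseline, and here sample 52 alone stood above the baseline range. Over the 28 samples, 6 of 12 day 7 samples exceeded the highest baseline sample (1675 CPM) and 11 of 12 exceeded the baseline median of 260.0 CPM. The log2 fold change of POSTN was 3.49 ± 0.645 (SE), with an unadjusted p of 1.33e-06 and an adjusted p of 0.00807. Without samples 10 and 21 it was 3.32 ± 0.620, with an unadjusted p of 7.59e-06 and an adjusted p of 0.0968 (edgeR), so the size was kept and the call was not.

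SFRP2 was at 0 counts in 13 of 16 baseline samples. The other 3 were all from pig 4494, at 6.93, 167 and 26.5 CPM. At day 7 it was at 0 in 3 samples, namely sample 44 of pig 4494 and samples 47 and 53 of pig 4665. The highest day 7 values were 904 CPM (sample 17, pig 4664) and 466 CPM (sample 39, pig 4494), followed by 205 CPM (sample 52) and 175 CPM (sample 36). These 4 of 12 day 7 samples exceeded the highest baseline sample, and the day 7 median was 26.9 CPM. The fitted log2 fold change was 7.59 ± 1.35 (adjusted p = 0.00732, edgeR), and it was 3.30 by limma voom with sample quality weights. The part of the baseline zeros in that gap was not tested. With 26 samples the edgeR log2 fold change was 7.04 ± 1.60 and did not pass (adjusted p = 0.334).

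**Figure D1:**
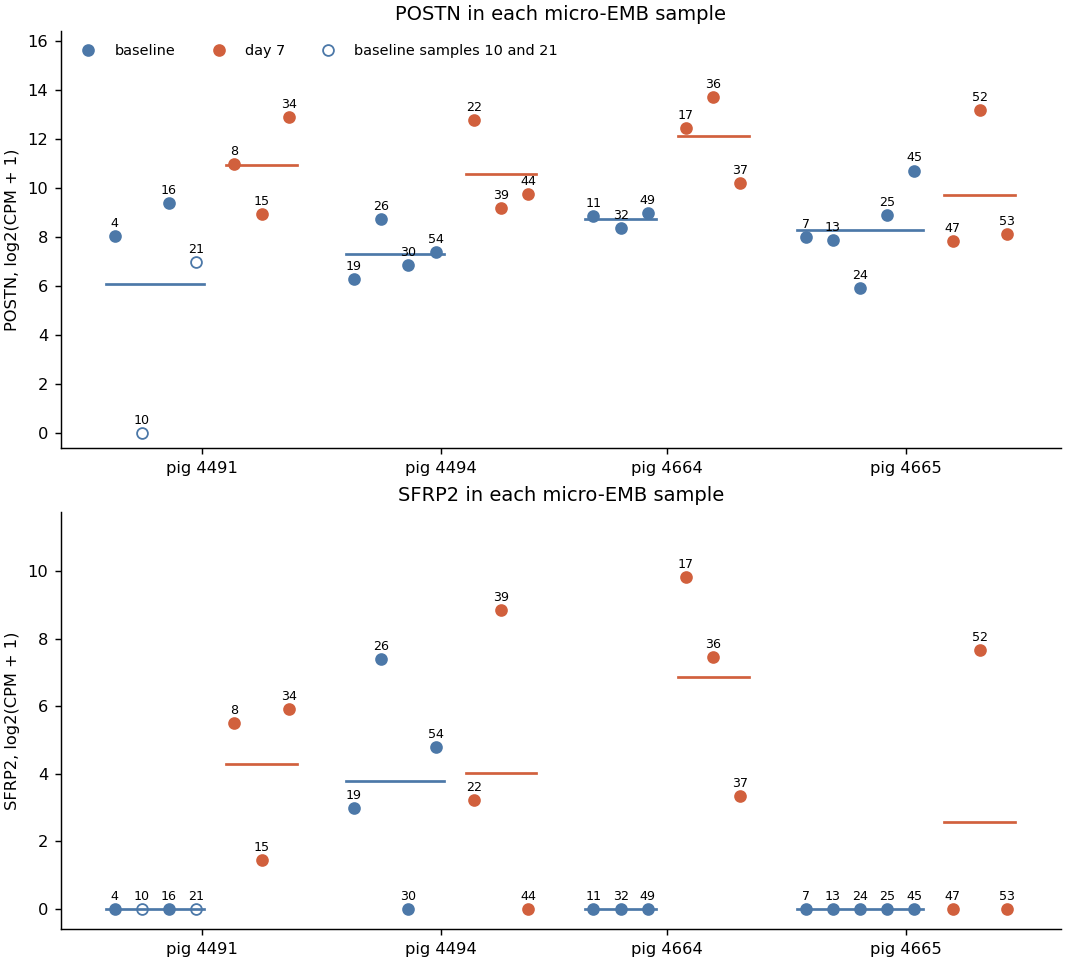
Values of POSTN and SFRP2 in each of the 28 micro-EMB samples, by pig, as log2(CPM + 1); each point is 1 biopsy with its sample number, lines are the means of a pig and timepoint and open points are samples 10 and 21. POSTN reaches 13231 CPM at day 7 against at most 1675 CPM at baseline, while 2 day 7 samples of pig 4665 stay among its baseline samples.

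Both calls rested on single libraries and pigs. Neither gene passed when sample 21, sample 52, pig 4491, pig 4664 or pig 4665 was left out, and SFRP2 was the only gene to pass without sample 34. Without pig 4494, 8 genes passed, among them SFRP2 but not POSTN, whose adjusted p was just above the limit, so POSTN failed the test whichever pig was left out, and without sample 19, 22, 39, 44 or 47 between 4 and 6 did.

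None of the genes next in rank passed the adjusted test. FN1, which encodes fibronectin, ran from 414 to 33532 CPM at day 7 (median 7205) and from 0 to 4942 CPM at baseline (median 1123), and 7 of 12 day 7 samples lay above every baseline sample. Its log2 fold change was 2.95 ± 0.729 (adjusted p = 0.238) with 28 samples and 2.59 ± 0.669 (adjusted p = 0.502) with 26. The highest fibronectin values were those of samples 34 (33532 CPM) and 8 (27648 CPM) of pig 4491 and sample 52 (24317 CPM) of pig 4665, while samples 47 and 53 of pig 4665, at 619 and 414 CPM, lay below the baseline median. ADAM12, a metalloprotease of activated mesenchymal cells, was between 0 and 433 CPM at day 7 and between 0 and 41.6 CPM at baseline, and 5 of 12 day 7 samples lay above the baseline range. Its log2 fold change was 4.18 (adjusted p = 0.121), but in pig 4494 the day 7 mean was lower than the baseline mean. COL8A1, a short-chain collagen, had a log2 fold change of 2.50 (adjusted p = 0.238) and 7 day 7 samples above the baseline range, which ended at 171 CPM. SFRP1, a relative of SFRP2, had 2.96 (adjusted p = 0.238), and OLFML2B, an olfactomedin-like matrix protein, 2.32 (adjusted p = 0.240).

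TIMP1, the tissue inhibitor of metalloproteases, gave a different picture among pigs. Its day 7 values ran from 13.3 to 1927 CPM (median 153), the highest in sample 44, against 0 to 301 CPM at baseline (median 15.1), the highest in sample 4. Both samples were among those treated as contaminated with blood. Only 3 day 7 samples passed the highest baseline sample, and that sample, number 4 of pig 4491, was followed by sample 16 of the same pig at 266 CPM. Its log2 fold change was 2.67 (adjusted p = 0.256), and the difference in pig 4491 turned from 3.07 to -0.85 on the log2 scale once samples 10 and 21, both at 0, were left out.

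The 10 named genes of smallest p among those higher at day 7 also held PRSS35, a protease-like gene with a log2 fold change of 3.94, and MPZL2, a cell adhesion gene, with 4.41 (adjusted p = 0.241 for both). With 26 samples the ranking brought in RAI14 (2.32, adjusted p = 0.334) and RCN1, a calcium-binding protein of the endoplasmic reticulum (1.68, adjusted p = 0.334). RCN1 had 8 of 12 day 7 samples above the baseline maximum of 175 CPM. Also new in that ranking were PKDCC (1.56) and SERPINB11, a serpin that was too low to be tested with 28 samples (5.04), both at an adjusted p of 0.502. Among genes without a symbol, ENSSSCG00000028253 had a log2 fold change of 5.33 (adjusted p = 0.0553), and 5.14 (adjusted p = 0.334) with 26 samples. ENSSSCG00000022228 had 4.30 (adjusted p = 0.121). ENSSSCG00000012126 had 2.67 with 26 samples (adjusted p = 0.334), and 9 of its 12 day 7 samples lay above every baseline sample.

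The leading genes lower at day 7 were of another kind, and none passed. They depended on the samples that were kept. MYL1 (log2 fold change -3.05, unadjusted p = 0.00689), MYOZ1 (-4.39, p = 0.00889), MYH13 (-4.06, p = 0.0111) and MYL11 (-3.65, p = 0.0126) encode sarcomere proteins known from skeletal muscle. Sample 10 alone held 4854 CPM of MYL1, 1871 CPM of MYL11, 700 CPM of MYH13 and 297 CPM of MYOZ1. In the 26 samples the highest baseline values of MYL1 and MYOZ1 were 78.6 and 118 CPM. Those of MYH13 and MYL11 in the 26 samples were 208 and 73.9 CPM, both in sample 19. The log2 fold changes there were -2.26 for MYL1 (p = 0.0226), -2.78 for MYOZ1 (p = 0.134) and -1.95 for MYH13 (p = 0.353), and MYL11 was no longer tested. ACSL6, an acyl-CoA synthetase, and LRRN3, a membrane protein with leucine-rich repeats, were among the lower genes in both sample sets (-4.34 and -3.54 with 28, -4.61 and -4.06 with 26), as was IGSF1 (-1.98 and -1.66). IGSF1 had a median of 8.90 CPM at day 7 and 29.3 CPM at baseline and was lower in all 4 pigs. The others with 28 samples were ADSL, an enzyme of purine synthesis (-1.78), KLHL4 (-2.39) and GPA33 (-4.06). With 28 samples the adjusted p of these 10 lower genes was at least 0.688.

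With 26 samples the smallest p among the lower genes belonged to PPA2, a mitochondrial pyrophosphatase (-4.62, unadjusted p = 0.00071), and GMPR, a reductase of purine metabolism (-1.38, p = 0.00155). Neither passed (adjusted p = 0.502 and 0.604). ZNF318 (-0.67), MPPED2 (-1.81), CYRIA (-1.26), SYT17 (-2.77) and STRIP2 (-1.22) followed. SYT17 and STRIP2 were lower in all 4 pigs in both sample sets. The unnamed genes ENSSSCG00000030882 (-5.20, adjusted p = 0.251) and ENSSSCG00000003725 (-2.52) led with 28 samples, and ENSSSCG00000017122 (-4.73) with 26.

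Asymmetry between higher and lower genes shrank without the pair of sparse samples. At an unadjusted p under 0.05, 493 of 12164 genes were higher (4.05%) and 60 lower (0.493%) with 28 samples, against 435 of 12752 higher (3.41%) and 109 lower (0.855%) with 26. The median log2 fold change of all tested genes was 0.28 with 28 samples and 0.08 with 26. A positive fold change was found in 8470 of 12164 genes with 28 samples and in 7176 of 12752 with 26. The values and signs of genes and lists are best read against these.

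Whether the pigs moved together was examined by the difference between day 7 and baseline means within each pig. With 28 samples 1655 of 12164 genes (13.6%) were higher at day 7 in all 4 pigs and 63 (0.518%) were lower in all. With 26 samples the counts were 1030 of 12752 (8.08%) and 374 (2.93%). The pigs differed in their general shift. In pig 4491 92.3% of genes were higher at day 7, or 64.4% with its samples 10 and 21 left out, while 35.6% were higher in pig 4494, 52.1% in pig 4664 and 68.4% in pig 4665. Measured against each pig's own median gene, 909 genes were higher in every pig (7.47%) and 823 lower (6.77%) with 28 samples. With 26 these were 833 (6.53%) and 695 (5.45%). Centring on the median puts equal numbers of genes above and below it in each pig, so similar counts in both directions are largely built in. How many genes unrelated pigs would give was not tested.

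Of the 50 genes of smallest p that were higher at day 7, 35 were higher in every pig with 28 samples and 38 with 26. Of the 50 lower ones, 15 and 32 were lower in every pig. These counts describe genes that the same samples had ranked, so the ranking was repeated with 1 pig left out and read in that pig. With 28 samples, 34, 23, 42 and 35 of the 50 leading higher genes were higher in the left-out pig (4491, 4494, 4664 and 4665 in turn), or 68%, 46%, 84% and 70%. Beside them stood 93.6%, 36.1%, 51.0% and 69.0% of all genes in those pigs. With 26 samples the leading genes gave 17, 25, 46 and 38 of 50 (34%, 50%, 92% and 76%), against 65.8%, 34.9%, 53.2% and 68.0% of all genes. In pig 4664 the share was above that of all genes by the widest margin, in pig 4491 it lay below. The 50 lower genes were lower in the left-out pig for 2, 26, 13 and 21 of 50 with 28 samples, and for 7, 16, 15 and 15 with 26. That was 4%, 52%, 26% and 42% beside 6.20%, 63.9%, 48.9% and 30.9% of all genes with 28 samples. With 26 it was 14%, 32%, 30% and 30% beside 34.2%, 65.1%, 46.8% and 32.0%, so the leading lower genes lay below the share of all genes in every left-out pig.

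**Figure D2:**
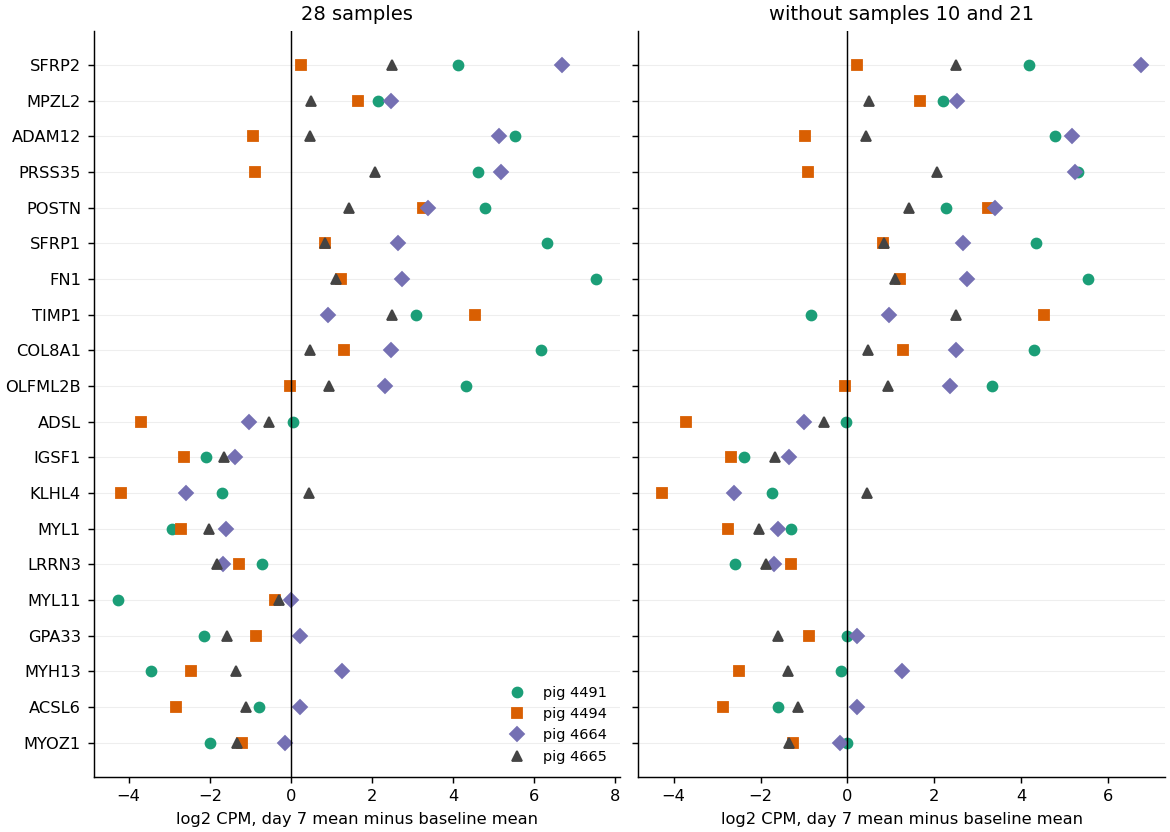
Differences between the day 7 and baseline means of log2 CPM within each of the 4 pigs for the 10 named genes of smallest p in each direction, with 28 samples (left) and without samples 10 and 21 (right); each symbol is 1 pig. POSTN is higher in all 4 pigs in both panels (1.42 to 3.40 without the sparse samples), TIMP1 turns negative in pig 4491 on the right, and ADAM12 is negative in pig 4494.

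POSTN was higher at day 7 in each pig, by 4.78, 3.26, 3.37 and 1.43 on the log2 scale (pigs in the same order), and by 2.26 in pig 4491 without samples 10 and 21. SFRP2 was higher by 4.12, 0.26, 6.68 and 2.49, so pig 4494, whose baseline samples already held it, contributed little. FN1 differed by 7.52, 1.25, 2.73 and 1.11, and by 5.54 in pig 4491 with 26 samples. COL8A1 differed by 6.16, 1.31, 2.48 and 0.48. In the 26 samples POSTN, SFRP2, FN1 and COL8A1 were thus higher in 4 of 4 pigs, by amounts that differed several-fold among pigs. The baseline of pig 4491 was then only samples 4 and 16. Sample 4, with 0.583% of counts in heart genes, held 50.5 CPM of FN1 and 2.30 CPM of COL8A1. Sample 16 held 2809 and 76.8 CPM, and every day 7 sample of that pig lay above it in both genes. The size of these differences in pig 4491 therefore rests partly on sample 4.

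Matrix proteins had the highest median of the lists with at least 5 tested genes in 28 samples. Of 31 listed matrix proteins 26 were tested, and 25 of them had a positive fold change with 28 samples, beside 8470 of 12164 over all tested genes. Their median log2 fold change was 1.53, beside 0.28 over all tested genes. At an unadjusted p under 0.05, 18 of 26 were higher and 0 lower, beside 4.05% of all genes that were higher. These were POSTN, FN1, COL8A1, COL12A1, VCAN, TNC, BGN, THBS2, COL5A1, SPARC, CCN2, COL6A3, COL5A2, COL3A1, COL6A2, LUM, COL16A1 and COL1A2. The other 8, at larger p, were THBS1, COL14A1, COL4A2, FBN1, FBLN2, ELN, COL15A1 and DCN. The fibril-forming collagen genes COL3A1 and COL1A2 had log2 fold changes of 1.51 and 1.32, COL12A1, which encodes a collagen on the surface of fibrils, had 2.62, and ELN, which encodes elastin, had -0.70. With 26 samples 14 of 26 were higher at that limit, beside 3.41% of all genes, and the median was 1.22. The list of Schwann cell and nerve genes then stood above it, at 1.498, with 0 of 5 tested genes at that limit (with 28 samples 4 were tested, with a median of 1.06). In 18 of the 26 matrix genes the day 7 mean was higher in all 4 pigs, in both sample sets, beside 13.6% and 8.08% of all genes. That count was 13 relative to each pig's median gene, and 4 where medians of biopsies replaced the means (28 samples), beside 11.3% of all genes.

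Single day 7 biopsies carried much of this. The highest of the 28 values of a matrix gene fell in a day 7 sample for 22 of the 26 genes, in sample 36 for 11 of them and in sample 52 for 6. Samples 36, 52, 34, 8, 17 and 39 exceeded every baseline sample in 18, 15, 13, 12, 11 and 11 genes of the list, samples 15 and 44 in 2 each and samples 22 and 37 in 1 each. Samples 47 and 53 of pig 4665 did so in 0. Day 7 gave 12 of the 28 samples, and these counts were not made over all tested genes. They describe which biopsies were high in matrix genes and not what is particular to the list. Without sample 52 the count of matrix genes at an unadjusted p under 0.05 was 9 of 26 (5 of 26 from the smaller sample set). The mean log2 CPM of the matrix list was 8.41 in the median baseline sample and 9.58 in the median day 7 sample, with ranges of 3.95 to 9.77 and 7.14 to 11.36 that overlapped. Per pig, the list's median difference was 3.90, 0.83, 1.48 and 0.44.

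Cardiomyocyte genes lay on the other side. Of 15 tested contractile and conduction genes 13 had a negative fold change with 28 samples, beside 3694 of 12164 over all tested genes. The median of the list was -0.39 (28 samples) and -0.60 (26), and 0 had an unadjusted p under 0.05. MYOM2, a protein of the sarcomere's M band, was at -0.97 (p = 0.197), NEBL, a nebulin-like Z-disc protein, at -0.56, and TCAP, which caps titin, at -0.60, whereas the cardiac transcription factor GATA4 was at 0.50. The list's median was positive in pig 4491 (3.36) and negative in the others (-1.44, -2.88 and -1.04). Baseline samples 4 and 21, both of pig 4491, were the lowest at baseline. The day 7 samples lowest in cardiomyocyte genes were 36 (4.56), 52 (7.65), 44 (7.72), 8 (7.92) and 22 (8.22, mean log2 CPM). Samples 36, 52 and 8 were also among those with the most matrix genes above every baseline sample. In such biopsies a smaller number of cardiomyocytes and less RNA per cardiomyocyte cannot be told apart, and the part of the tissue mixture in the matrix values was not tested.

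**Figure D3:**
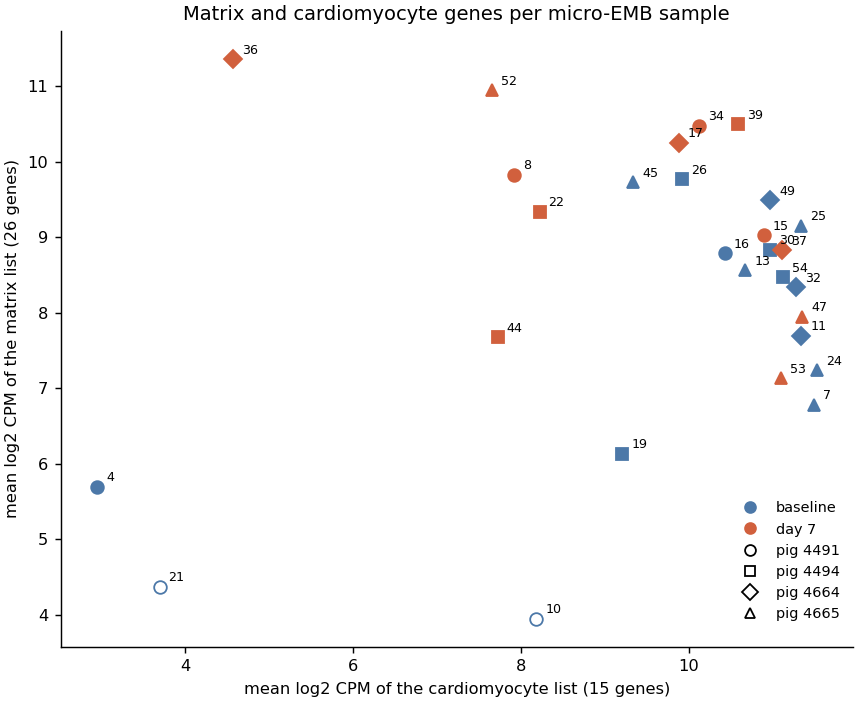
Mean log2 CPM of the 26 matrix genes against that of the 15 cardiomyocyte genes in each micro-EMB sample, with the sample number beside each point; colour marks the timepoint, the symbol the pig, and open points are samples 10 and 21. Day 7 samples 36 and 52 combine the 2 highest matrix levels with low cardiomyocyte levels (4.56 and 7.65), while samples 34, 39 and 17 have high matrix levels at cardiomyocyte levels near those of baseline samples.

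Enzymes that modify collagen followed the matrix proteins. All 15 tested had positive fold changes in both sample sets, beside 8470 of 12164 and 7176 of 12752 over all tested genes. At an unadjusted p under 0.05, 9 of 15 were higher with 28 samples and 7 with 26, beside 4.05% and 3.41% of all genes. Their median was 1.33 and 1.09. The same shares of all genes stand beside the counts of every list below. BMP1, which cleaves procollagen, was at 1.74 (unadjusted p = 0.00309) and exceeded every baseline sample in 6 of 12 day 7 samples. The cross-linking enzymes LOXL1 and LOX were at 1.99 and 1.78, and FKBP10, a collagen chaperone, at 2.14. PLOD1, a lysyl hydroxylase, was at 1.04 with 28 samples and 0.62 with 26, with an unadjusted p of 0.0860 and 0.138. Matrix proteases and their inhibitors had a median of 1.28 (1.05 with 26 samples), with 5 of 10 at an unadjusted p under 0.05 in either set. Among them PLAT, the tissue plasminogen activator, was at 1.87 and MMP2, a gelatinase, at 1.65.

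Markers of fibroblasts and myofibroblasts had a median of 1.16, with 4 of 11 at an unadjusted p under 0.05 (0.95 and 2 of 11 with 26 samples). Of all genes 4.05% and 3.41% were higher at that limit. ACTA2, the smooth muscle actin of myofibroblasts, was at 2.42 (p = 0.0180) with 28 samples and 1.59 (p = 0.114) with 26. VIM, which encodes vimentin, was at 1.37 and 1.13 and exceeded every baseline sample in 7 of 12 day 7 samples. CTHRC1, a secreted protein of activated fibroblasts, was at 2.87, and TAGLN, an actin-binding protein, at 1.26. In the list of transforming growth factor beta and BMP signalling 3 of 21 genes were at an unadjusted p under 0.05 (4 with 26 samples), with a median of 0.62 (0.40). In all 4 pigs 9 of 21 were higher (4 with 26 samples), beside 13.6% and 8.08% of all genes. TGFB3, a ligand, was at 2.25 (unadjusted p = 0.00112), LTBP3, which holds the latent ligand in the matrix, at 1.56, and SMAD7, an inhibitor of the pathway, at 1.38.

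Fewer genes of the immune lists were at that limit, at which 4.05% of all genes were higher (3.41% with 26 samples). Of 16 macrophage and myeloid genes 0 were at an unadjusted p under 0.05 in either sample set, with a median of 0.90 and 0.78. Of them 14 and 16 were positive, beside 8470 of 12164 and 7176 of 12752 over all tested genes. ITGB2, an integrin of leukocytes, was at 1.33 (p = 0.0534), PTPRC, the leukocyte common antigen, at 1.23, and ITGAM at 1.00, and LGALS3, which encodes galectin-3, at 1.37 (1.04 with 26 samples). The list's mean log2 CPM was 3.65 in the median baseline sample and 4.64 in the median day 7 sample, with overlapping ranges of 1.36 to 7.12 and 3.31 to 6.92. The highest were sample 26 at baseline and sample 44 at day 7. Of 10 lymphocyte genes 0 were higher and 1 was lower at that limit, with a list median of 0.08. Of the 56 tested genes of the study's inflammatory list 5 were higher at that limit, with a median of 0.71 (6 of 58 and 0.57 with 26 samples). In all 4 pigs 21 of 56 were higher, beside 13.6% of all genes (9 of 58 beside 8.08% with 26 samples). For the macrophage and myeloid genes it was 6 of 16 (2 of 16), and for the lymphocyte genes 0 of 10 (0 of 11). Agreement over pigs was thus not confined to the matrix list. IL1A, an interleukin, was at 3.77 (unadjusted p = 0.00234), with 1449 CPM in sample 44, 55.3 CPM in the next day 7 sample and 0 in 5 of 12. Sample 44 was among those treated as contaminated with blood. ICAM1, an adhesion molecule, was at 1.66, and IL1R1, an interleukin receptor, at 1.38. Of the 22 genes of the study's macrophage list 0 were at the limit (median 0.51), and 3 were higher in all 4 pigs (1 with 26 samples). The inflammatory list and this macrophage list are those that the study had read in its biopsies. Interferon response genes had a median of 0.07, with 0 of 16 at the limit.

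Metabolic and vascular lists had medians between -0.23 and 0.51 with 28 samples. Over all tested genes 4.05% were higher at an unadjusted p under 0.05. Counts of 0 or 1 gene in the lists of this paragraph are too small to set them apart from that share. Glycolysis and hypoxia genes had a median of 0.22, with 3 of 17 at an unadjusted p under 0.05, among them ENO1, a glycolytic enzyme (1.17), and NDRG1, a gene known from hypoxia (1.39). The 17 tested genes of fatty acid oxidation, the main fuel path of the adult heart, had a median of -0.23 (-0.55 with 26 samples) and 0 at the limit. With 26 samples 15 of 17 were negative, beside 5576 of 12752 over all tested genes. HADHB, a subunit of the mitochondrial trifunctional enzyme, was at -1.20 (p = 0.0565). Endothelial genes had a median of 0.13 with 1 of 11 at the limit, ENG at 1.26, and vascular smooth muscle genes 0.51 with 0 of 7. Cardiomyocyte stress genes had a median of -0.19, with 1 of 9 at the limit, RCAN1, a calcineurin regulator (1.88). Proliferation genes had a median of 0.89 and endoplasmic reticulum stress genes 0.60, with 0 of 13 and 0 of 10 at the limit, and immediate early and heat shock genes 0.54 with 1 of 16, HSPH1 (1.57).

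**Figure D4:**
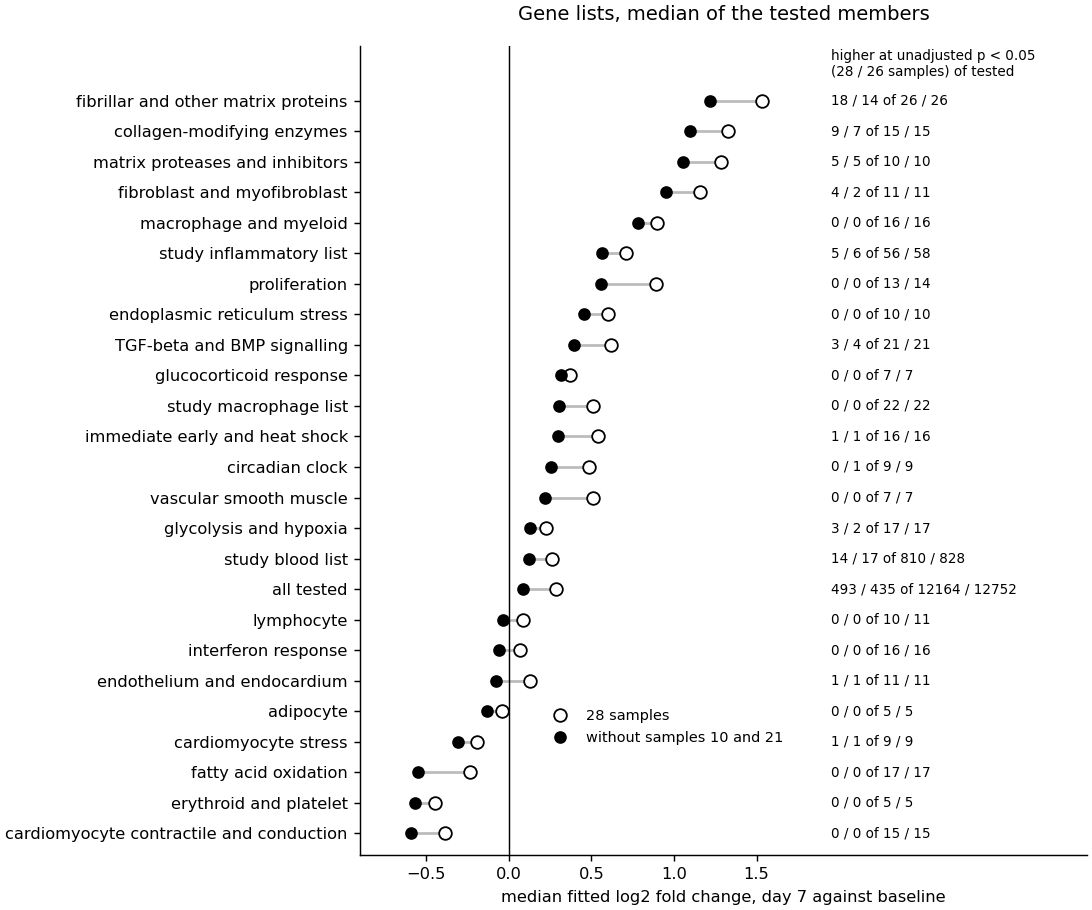
Median fitted log2 fold change of the tested members of each gene list, day 7 against baseline, with 28 samples (open circles) and without samples 10 and 21 (filled circles); the numbers at the right are members higher at an unadjusted p under 0.05 of those tested. Lists with under 5 tested members in either set are not drawn. Matrix proteins stand highest of those drawn (1.53 and 1.22), and cardiomyocyte genes stand at -0.39 and -0.60, with all tested genes at 0.28 and 0.08.

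The spread between biopsies of the same pig and day was measured as the distance of each sample's log2 CPM profile from the mean of its pig and timepoint, corrected for the number of samples in that mean. It averaged 147 ± 37.6 at day 7 (SD, n = 12) and 183 ± 83.7 at baseline (n = 16), and the difference was within what reassigning timepoints inside pigs gave (exact permutation test, two-sided, p = 0.136). Without samples 10 and 21 the means were 152 and 159 (exact permutation test, p = 0.714). The pigs went in opposite directions. In pigs 4494 and 4664 the day 7 samples were farther apart (197 against 138, and 145 against 100.1), and in pigs 4491 and 4665 the baseline samples were (299.7 against 126, and 175 against 121). Without pig 4494 the day 7 mean was lower by 68.7 (exact permutation test, p = 0.018), and without pig 4491 it was higher by 10.6. Neither a wider nor a narrower day 7 was therefore a feature of all 4 pigs.

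**Figure D5:**
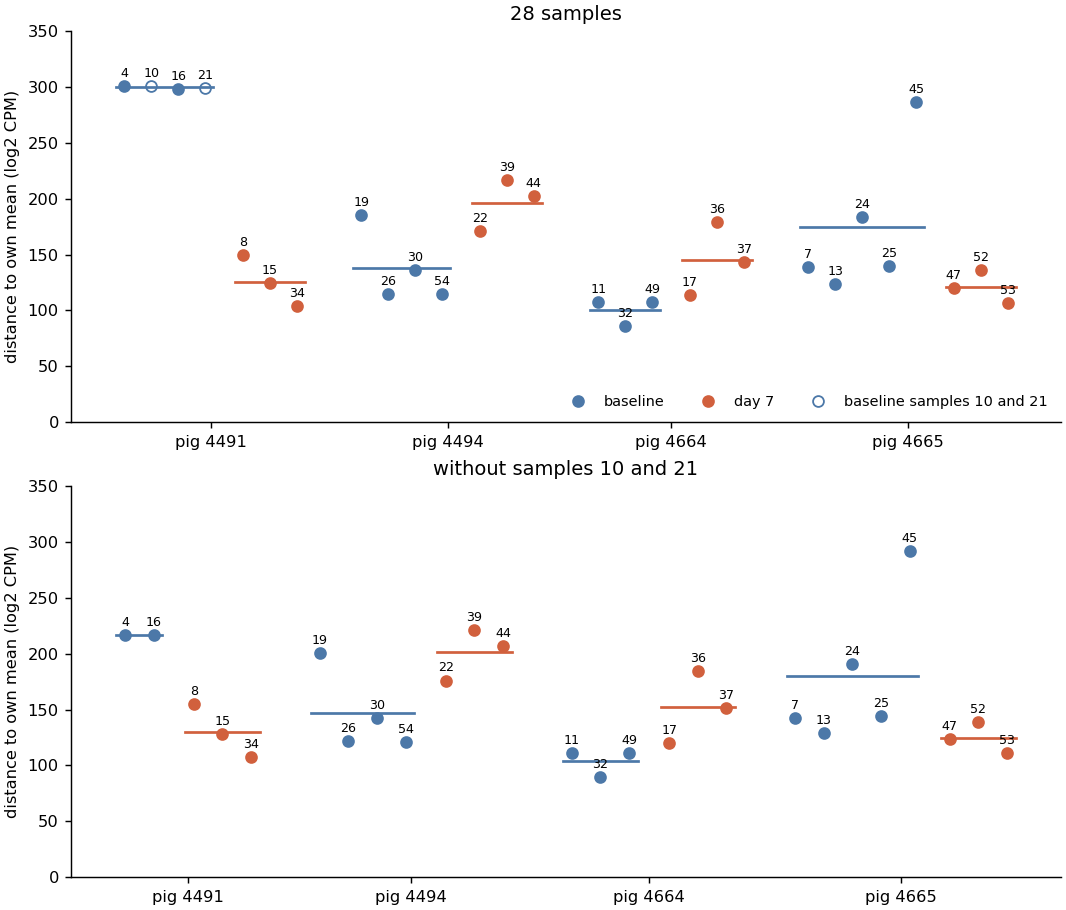
Distance of each micro-EMB sample from the mean log2 CPM profile of its pig and timepoint, with 28 samples (top) and without samples 10 and 21 (bottom); each point is 1 biopsy with its sample number, lines are the means of a pig and timepoint and open points are samples 10 and 21. The day 7 means lie above the baseline means in pigs 4494 and 4664 and below them in pigs 4491 and 4665, in both panels, and the baseline samples of pig 4491 average 299.7 at the top and 217 at the bottom.

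Gene by gene, the variance at day 7 against baseline gave few calls. A test on absolute deviations (limma, adjusted p under 0.05) called 6 of 12164 genes wider at day 7 (0.0493%) and 4 narrower (0.0329%) with 28 samples, and 12 of 12752 wider (0.0941%) and 10 narrower (0.0784%) with 26. On simulated data that test gave too many small p-values. A test with 1 variance per pig and timepoint called 0 genes in either direction and in either set (0%; limma, smallest adjusted p 0.306 and 0.289, with 157 and 272 genes at an unadjusted p under 0.05). By the ratio of variances 23.9% of genes were wider at day 7 with 28 samples and 41.3% with 26.

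SFRP2 had the smallest p of the wider genes, with an SD between biopsies within pigs of 3.69 at day 7 and 1.51 at baseline on the log2 scale (adjusted p = 0.0155 by the absolute deviations, 0.306 with 1 variance per pig and timepoint). GATA5, a transcription factor of the developing endocardium, had SDs of 2.06 and 0.747 (adjusted p = 0.0181 by the absolute deviations). Among the narrower genes, TENT2, NMD3 and EIF3M, which act in RNA tailing, ribosome export and translation initiation, had SDs of 0.295, 0.455 and 0.462 at day 7 against 2.47, 2.31 and 2.55 at baseline. They passed by the absolute deviations with 28 samples (adjusted p = 0.0481) and not with 26 (0.159, 0.114 and 0.149). No gene named in this paragraph passed with 1 variance per pig and timepoint in either set. With 26 samples the chemokine gene AMCF-II and RUNX2, a transcription factor of bone and mesenchyme, were wider by the absolute deviations, and PPA2 and TAB2 were narrower (TAB2 SDs 0.290 and 1.09, adjusted p = 0.0458). POSTN had SDs of 2.22 at day 7 and 2.34 at baseline with 28 samples, and 2.22 and 1.29 with 26 (adjusted p = 0.189).

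Among the lists, cardiomyocyte genes had the larger day 7 variance in 11 of 15 with 28 samples, beside 23.9% of all genes, and in 15 of 15 with 26, beside 41.3%, with median SDs of 2.47 and 2.04 in the smaller set. From the 28 samples the count was 15, 10, 2 and 5 of 15 without pigs 4491, 4494, 4664 and 4665 in turn, and day 7 samples 36 and 52, of pigs 4664 and 4665, were low in these genes. Immediate early and heat shock genes were wider in 13 of 16 and matrix genes in 12 of 26 with 26 samples, and endoplasmic reticulum stress genes in 3 of 10. The members of a list vary together across samples, so these counts describe the list and are no test of it.

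In the conventional EMB of pigs 4491 and 4494 most matrix genes had a negative fold change. Some of these libraries stood apart. Day 7 sample 3 had 74767 counts and 1.71% in heart genes (95% Wilson interval 1.62 to 1.8%), day 7 sample 55 had 318946 counts and 0.594% (0.568 to 0.621%), and baseline sample 38 had 0.544% (0.534 to 0.554%). Erythroid and platelet genes had a median log2 fold change of 2.96 in the same fit, with 3 of 5 at an unadjusted p under 0.05, and lymphocyte genes 2.00, with 10 of 10 positive, and their part in the matrix values was not tested. In the fit of day 7 against baseline, 0 of 10885 genes passed (0%; edgeR quasi-likelihood test, 424 genes higher and 69 lower, 3.90% and 0.634%, at an unadjusted p under 0.05), while DESeq2 called 188. POSTN held 310, 207 and 523 CPM at baseline and 118 and 282 CPM at day 7 in pig 4491, and 240, 4.05 and 129 CPM at baseline and 122 and 252 CPM at day 7 in pig 4494. Over both pigs no day 7 value lay above the highest baseline value, although in pig 4494 sample 50 (252 CPM) lay above that pig's highest (240 CPM), and the log2 fold change was -0.06 ± 0.821 (p = 0.942, edgeR). Of the 26 matrix genes 2 were positive, beside 5425 of 10885 over all tested genes, and 0 were at an unadjusted p under 0.05, with a list median of -0.87. Of the 50 leading higher genes of the 28 micro-EMB samples, 26 were higher in conventional EMB at day 7, beside 47.8% of all genes.

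The difference between the 2 devices was tested as an interaction over both kinds of sample. None of 14481 genes passed (0%; edgeR, 1529 at an unadjusted p under 0.05, of which 1347, or 9.30% of those tested, were lower in micro-EMB relative to conventional EMB). With only pigs 4491 and 4494, which gave both kinds, 343 genes passed, all of them with the lower micro-EMB change. The day 7 conventional EMB of pig 4491 were samples 55 and 56, with 318946 and 619934 counts. They had 16309 and 15481 genes at 1 CPM or more, against 6807 to 13909 in the other conventional EMB. The part of these libraries in the 343 genes was not tested. For POSTN the micro-EMB change was larger by 3.77 (unadjusted p = 0.00498, adjusted p = 0.143), for COL8A1 by 3.77 (unadjusted p = 0.00633), for SFRP1 by 3.89 (unadjusted p = 0.00625) and for FN1 by 3.61 (unadjusted p = 0.0132). For SFRP2 the difference had the opposite sign, at -1.18 (unadjusted p = 0.428), and -3.22 with only pigs 4491 and 4494. Among conventional EMB, however, SFRP2 was at 10.5 CPM in sample 55 and at 0 in all others. It was too low to be tested in the conventional EMB fit, so this sign rests on 1 library of 318946 counts. A difference between devices in the day 7 change of these genes was therefore not established. The smallest p belonged to WDR88, ENAM and SPMIP11 (-12.38, -11.19 and -10.90), genes at or near 0 in most micro-EMB samples, which did not pass either (adjusted p = 0.0804 for SPMIP11). Among conventional EMB they were highest in samples 55 and 56, at 23.6 and 29.5 CPM, 181 and 16.4 CPM, and 7.86 and 14.8 CPM. The other conventional EMB held at most 1.08, 7.57 and 1.77 CPM of the same genes in turn.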

How the data were processed

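The deposited values were whole-number read counts per gene for 25114 genes, which the authors made with Trim Galore, STAR and featureCounts on Sscrofa10.2; their versions and the strand setting are not given in the sources used here. Of the genes, 11793 could be named, 11791 of them from a RefSeq gene table. Pig, device and timepoint came from the labels, and pairing was by animal, with the pig as block. Extraction had been done in random batches that the labels do not give. No columns were identical (highest Spearman correlation 0.913).

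Counts were filtered (filterByExpr), scaled by TMM and tested with edgeR 4.0.16 (quasi-likelihood; R 4.3.3), p-values being adjusted by Benjamini-Hochberg over every gene in the fit, with limits of adjusted p 0.05 and absolute log2 fold change 1. Alternatives were DESeq2 1.42.0, limma 3.58.1 (voom), summed counts and others. Log2 CPM used a prior count of 2. Pig differences, distances and deviations used log2 CPM. Within-pig permutations enumerated 1372000 arrangements. Scripts were tested on simulated data. Figures were drawn with matplotlib 3.10.9.

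Genes were named by rule: the 10 of smallest p per direction and sample set, at most 2 unnamed per direction, 4 per list with at least 5 tested members, 5 per direction for variance and 3 for the interaction; other list members are given to complete the matrix list, and LGALS3 and PLOD1 as study genes. Of the genes so named, 1 is not reported here. The samples, lists and rules were chosen with earlier results of these data known. p-values measure the spread between biopsies, which share animals, and intervals cover counting error only.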

Additional observations from a re-analysis of the deposited data

Results flagged for a closer look

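In 38 checks of the highest or lowest sample within the 3 baseline groups of 4 or 5 samples, 5 values stood far from the rest of their pig's baseline samples. Chance alone marks about 1 in 20 groups if values are normally distributed, and the samples of 1 pig share an animal. CPM values and percentages were checked without a log scale and need not be so distributed, so more can be marked by chance. In pig 4491, sample 4 had 0.0172% of its counts in blood-only genes, against 0.00189% in the next sample. In pig 4494, sample 26 held 167 CPM of SFRP2, against 26.5 CPM in the next. In pig 4665, sample 45 had 6111 genes at 1 CPM or more, against 11163 in the next sample, and held 1675 CPM of POSTN, against 473 CPM. In the same pig, sample 24 had 0.00307% of counts in blood-only genes, against 0.000857%. Samples 26 and 45 set the baseline maximum of SFRP2 and POSTN.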

How the results depend on the processing

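The 2 genes called in 28 samples became 0 without samples 10 and 21, without samples 10, 21, 4, 19 and 44, without samples under 1000000 counts, by limma voom, and without samples 10 and 21 with the blood score as covariate. They became 1 with DESeq2 size factors in edgeR and 1 with summed counts, 18 by DESeq2, 35 with no filter and 9 with the blood score as covariate. Without the pig block, that is without the pairing, 5 genes were called. Leaving out each pig or sample gave 0 to 8. In the 26 samples the count of 0 became 22 by DESeq2, 10 with no filter and 1 with summed counts, and 0 to 1 with a pig or sample left out (POSTN without sample 45, 47 or 53); without the pig block it stayed 0. In conventional EMB DESeq2 called 188, and in the device comparison pigs 4491 and 4494 alone gave 343.

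Of the 26 matrix genes, 18 at an unadjusted p under 0.05 became 8 without samples under 1000000 counts, 10 without samples 10 and 21 with the blood score as covariate, and 9 to 19 with a pig or sample left out (9 without sample 52, 10 without pig 4491). From 26 samples, 14 became 9 by limma voom and 5 to 17 with a pig or sample left out (5 without sample 52, 9 without sample 39 or pig 4664). Genes higher in every pig numbered 1030 without samples 10 and 21, 909 relative to each pig's median gene and 833 with both. Genes lower in every pig numbered 40 with a prior count of 0.5, 374 without samples 10 and 21, 709 without the 5 samples, 120 with no filter, and 823 and 695 relative to the median gene.

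The difference in spread turned to 4.88 without the 5 samples (exact permutation p = 0.842) and to 2.16 without samples 10 and 21 at equal totals, and ran from -68.7 to 10.6 with a pig left out. The 6 genes wider at day 7 became 12 without samples 10 and 21, 106 without the 5 samples, 0 at equal totals (3 without samples 10 and 21), 0 in the genes above the median level (1), 13 with variance-stabilized counts without samples 10 and 21, and 0 with 1 variance per pig and timepoint (0). The 4 narrower genes became 10, 8, 0 (1), 0 (0), 6 and 0 (0) under the same settings in turn, and 0 with variance-stabilized counts of the 28 samples. Leaving out pigs gave 0 to 40 wider and 0 to 1498 narrower genes, the highest without pig 4494 and 425 narrower without pig 4664. The blood difference turned to 0.12 when scored by the study's blood list. MYH13 in 26 samples ran from -3.79 to 0.29 with a pig or sample left out. For 37 genes the alternatives were recomputed wherever the gene was tested, and no other direction turned where an adjusted p was given. Directions without an adjusted p, which DESeq2 leaves for some genes, were not compared. The other named genes were not recomputed. The causes of these changes were not tested. Settings with samples 10 and 21 left out together with another choice, and the test with 1 variance per pig, were chosen after seeing the data. With 7 samples under 1000000 counts, low genes such as SFRP2 are the least well measured.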

Other observations

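Clock and glucocorticoid genes, which follow the time of day and stress, were also read. Of 9 tested clock genes 0 were at an unadjusted p under 0.05 with 28 samples and 1 with 26, PER2, a repressor of the clock (log2 fold change 0.88, p = 0.0422), with list medians of 0.48 and 0.25. Of 7 tested glucocorticoid response genes 0 were at that limit in either set, and FKBP5, a chaperone induced by the hormone, was at 0.74 (p = 0.188). Erythroid and platelet genes had a median of -0.45, with 0 of 5 at the limit, and adipocyte genes -0.04, with 0 of 5. Of 810 tested genes of the study's blood list 14 were higher and 1 lower at the limit, beside 4.05% and 0.493% of all genes. Their median was 0.26, next to 0.28 over all tested genes.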
